A study of Rattus norvegicus with 6 samples.

Results

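The genes described here are 10 markers of nerve cells: the RNA-binding protein genes Rbfox1, Rbfox2, Rbfox3, Elavl2, Elavl3, Elavl4 and Celf4, the microtubule genes Map2 and Tubb3, and Uchl1, which encodes a ubiquitin hydrolase abundant in neurons. They were chosen by name, with earlier results of these data known. Each was taken from the transcript cluster, the array's unit of summary for 1 transcribed locus, that the platform annotation gives to that gene alone. This found 8 of the 10, each with 1 cluster, among 20530 genes measured in all. The expression of Celf4 and Tubb3 was not analysed here. All 8 measured genes had lower means in lidocaine-treated cord, and 7 of the 8 passed the test. Of all 20530 genes, 10725 had lower means, and 2875 (14%) passed as lower.

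The study took RNA from lumbar cord, levels L2 to L6, of 6 Sprague-Dawley rats and ran each on its own Affymetrix array, with values on a log2 scale. In 3 rats, 20 µL of 10% lidocaine, a sodium channel blocker used for local anaesthesia, was injected into the intrathecal space around the cord. The other 3 were blank controls that received no treatment, so the effects of the drug and of the injection cannot be told apart. All cords were taken on day 4, after behavioural testing, and the ages of the rats are not given in the labels.

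Rbfox proteins bind RNA in the nucleus and decide which exons are joined. Rbfox3 is the antigen known as NeuN, a standard nuclear stain for mature neurons, Rbfox1 is found in neurons, heart and muscle, and Rbfox2 is made by many cell types. The neuronal Elavl proteins, also called HuB (Elavl2), HuC (Elavl3) and HuD (Elavl4), bind AU-rich and U-rich stretches of mRNA and stabilise transcripts that neurons need, while the related Elavl1 is made by nearly all cells. Map2 bundles microtubules in dendrites, and Uchl1, also called PGP9.5, is a stain for nerve cell bodies and fibres.

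All 3 Elavl genes fell, and Elavl4 and Elavl2 had the largest log2 changes of the measured members. The promoter windows of the family are shown so that its genes can be compared at its annotated starts. The windows run from 250 bases before to 50 bases after 1 annotated start per gene, from RefSeq on assembly GRCr8, each 300 bases long, 5′ to 3′ on the minus strand, which is the strand of all 3 genes. Capitals mark the hexamers GGGCGG (the GC box), TATAAA (the TATA box) and CAGCTG (one form of the E-box), searched on both strands, so that CCGCCC marks the GC box on the other strand. CAGCTG reads the same on both strands. No marked hexamers overlap.
Elavl2, chr5:111202238-111202537: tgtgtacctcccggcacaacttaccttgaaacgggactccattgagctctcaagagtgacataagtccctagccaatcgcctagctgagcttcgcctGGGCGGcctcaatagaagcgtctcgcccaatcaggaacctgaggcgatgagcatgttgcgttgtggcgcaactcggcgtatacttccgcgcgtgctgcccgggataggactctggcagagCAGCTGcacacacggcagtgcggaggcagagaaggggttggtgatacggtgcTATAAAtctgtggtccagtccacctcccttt
Elavl3, chr8:28858964-28859263: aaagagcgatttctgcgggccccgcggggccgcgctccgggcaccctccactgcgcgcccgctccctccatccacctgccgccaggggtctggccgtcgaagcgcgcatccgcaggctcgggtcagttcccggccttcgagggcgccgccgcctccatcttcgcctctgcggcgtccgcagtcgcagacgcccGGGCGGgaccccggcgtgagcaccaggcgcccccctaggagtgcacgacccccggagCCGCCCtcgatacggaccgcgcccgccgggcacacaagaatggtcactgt
Elavl4, chr5:130367614-130367913: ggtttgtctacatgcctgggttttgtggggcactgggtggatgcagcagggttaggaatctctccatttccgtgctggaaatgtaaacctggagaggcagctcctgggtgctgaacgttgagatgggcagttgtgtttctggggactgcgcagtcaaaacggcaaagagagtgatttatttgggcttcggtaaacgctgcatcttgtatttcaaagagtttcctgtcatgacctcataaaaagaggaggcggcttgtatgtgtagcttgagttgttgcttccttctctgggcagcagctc

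The windows of the 3 Elavl genes differed from each other in these letters. The Elavl2 window held 1 match to each hexamer, and its TATAAA lay after the annotated start. The Elavl3 window held 2 GC boxes and neither of the others, and the Elavl4 window held none of them. Their GC content was 57.3% for Elavl2, 74.3% for Elavl3 and 50% for Elavl4. Of the 10 genes, 7 had a window, and 4 of these 7 held GGGCGG, 2 held TATAAA and 2 held CAGCTG. Tubb3 is among the 7 and among the 4, though its expression was not analysed here. Over all 33469 windows of that length the shares were 33.1%, 14.2% and 15.1%. A match is a description of the letters, and one window says nothing of other starts of the same gene.

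The comparison of treated with untreated cord asks whether transcripts that mark neurons differ 4 days after intrathecal lidocaine. Of the 8 measured members, 7 fell, 0 rose, also at an unadjusted p under 0.05, and 1 did not pass (limma, adjusted p under 0.05 over all genes, 3 rats per group). Over all genes 14% fell and 9.7% rose, 23.7% in either direction. All 8 members are brighter than the median gene, and among genes brighter than the median 24.7% fell. The members' median log2 change was -0.47, against -0.01 over all genes and -0.39 over the genes that fell. In all 8 members the 3 lidocaine values lay below the 3 control values, a pattern seen in 24.6% of all genes, with 15.9% showing the reverse. The count of 7 was 3 without control rat 2 and 4 without control rat 3. In these bulk samples, fewer neurons, less RNA per neuron and a larger share of RNA from other cells cannot be told apart.

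**Figure D1:**
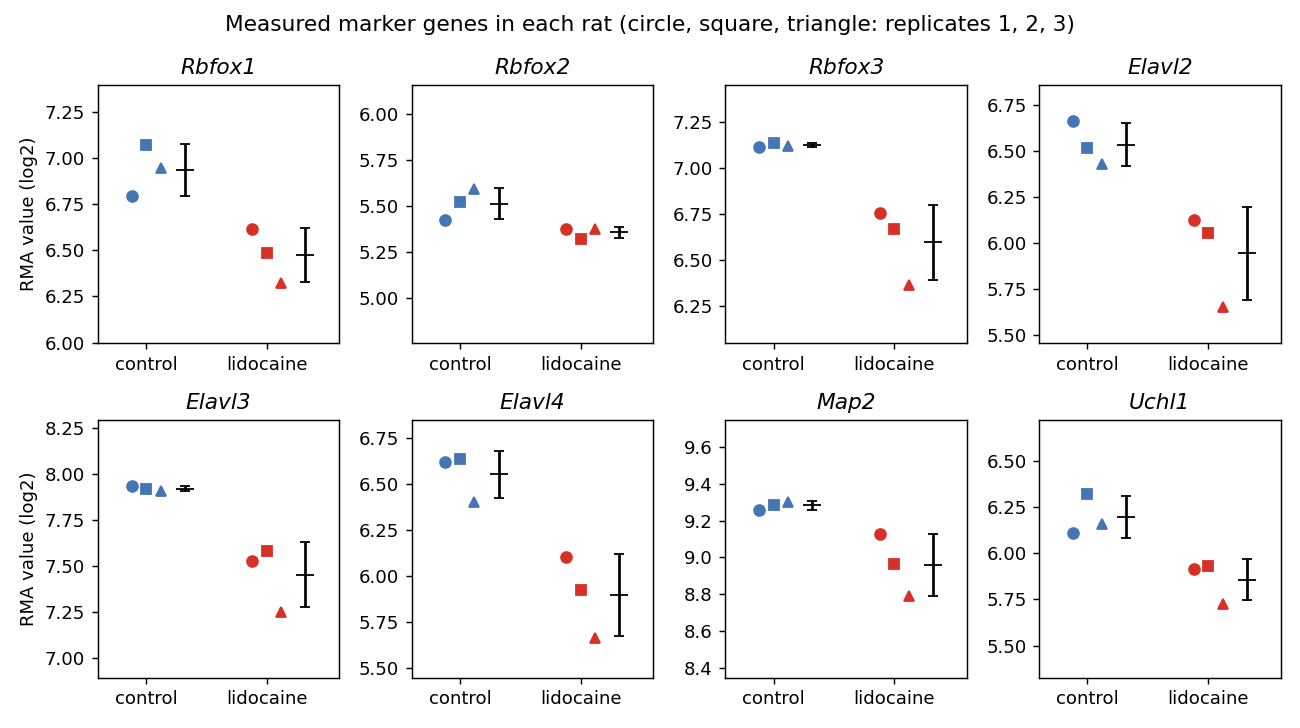
RMA values (log2, vertical axis) of the 8 measured genes in each rat, with control rats in blue and lidocaine rats in red, and bars for the mean ± SD of 3 rats. Each panel spans the same height on the log2 scale. The lidocaine values lie below the control values in all 8 panels, and lidocaine rat 3 is lowest of its group in 7.

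Among the Elavl genes, Elavl4 had log2 values of 6.62, 6.64 and 6.41 in the control rats and 6.10, 5.92 and 5.66 in the lidocaine rats. The groups did not overlap, and the highest lidocaine value lay 0.30 below the lowest control value. In 2 of the lidocaine rats Elavl4 was below the 95th percentile of the array's negative control rows. Elavl4 fell 1.58-fold (log2 change -0.66 ± 0.12, SE, n = 3 per group, limma adjusted p = 0.008). Only 1.17% of all genes had a lower log2 change.

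Elavl2 had log2 values of 6.66, 6.52 and 6.43 in the controls and 6.13, 6.05 and 5.66 with lidocaine, with lidocaine rat 3 well below the other 2 treated rats and below the 95th percentile of the array's negative control rows. It fell 1.51-fold (log2 change -0.59 ± 0.13, SE, limma adjusted p = 0.0145), but did not pass when control rat 2 was left out (adjusted p = 0.0508). Elavl3 had nearly equal control values of 7.94, 7.92 and 7.91, and 7.53, 7.58 and 7.25 with lidocaine. The distance between its groups was therefore many times the spread of the controls. Elavl3 fell 1.38-fold (log2 change -0.47 ± 0.09, SE, limma adjusted p = 0.0102). Elavl1, the ubiquitous relative, had a log2 change of 0.03 and did not pass (limma adjusted p = 0.781). Its values lay below the 95th percentile of the negative control rows on 5 of the 6 arrays, so a change could be understated.

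Of the Rbfox genes, Rbfox3 had log2 values of 7.12, 7.13 and 7.12 in the controls and 6.76, 6.67 and 6.37 with lidocaine. The controls were almost identical, and the 3 treated rats were spread over a wider range. Rbfox3 fell 1.44-fold (log2 change -0.53 ± 0.10, SE, n = 3 per group, limma adjusted p = 0.0095). Rbfox1 had values of 6.79, 7.07 and 6.95 in the controls and 6.61, 6.49 and 6.32 with lidocaine. Control rat 1 was its lowest control and came within 0.18 of lidocaine rat 1. Rbfox1 fell 1.38-fold (log2 change -0.46 ± 0.10, SE, limma adjusted p = 0.0143), but missed the threshold when control rat 2 or 3 was left out (adjusted p = 0.054 and 0.0513).

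Rbfox2, the member with the widest known expression outside neurons, had log2 values of 5.42, 5.52 and 5.59 in the controls and 5.37, 5.32 and 5.37 with lidocaine. The groups did not overlap, but control rat 1 and lidocaine rat 1 were 0.05 apart. Its log2 change was -0.16 with an unadjusted 95% interval from -0.31 to -0.003, and it did not pass over all genes (limma adjusted p = 0.135). With arrays weighted by their fit it passed (adjusted p = 0.0385). Its values lay below the 95th percentile of the array's negative control rows, which ran from 5.79 to 5.87 in the controls and from 5.99 to 6.06 with lidocaine.

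**Figure D2:**
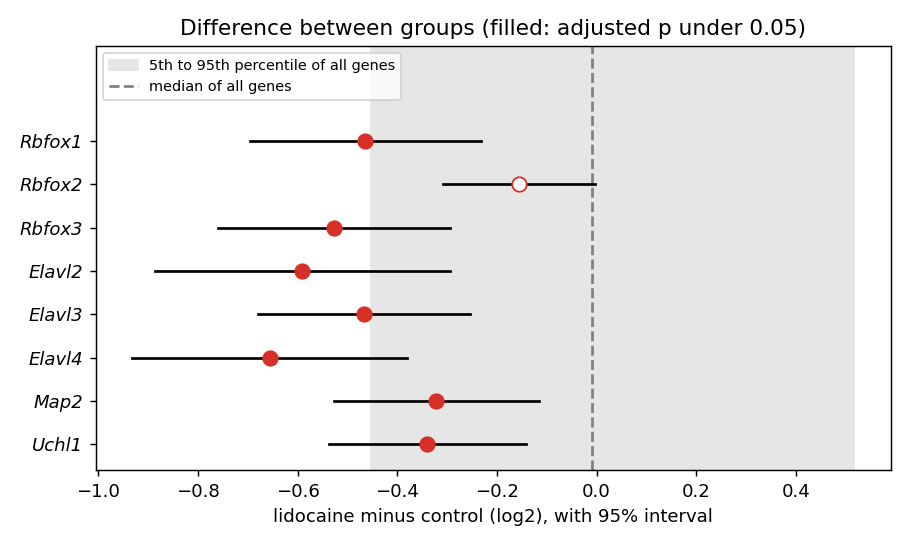
Log2 change, lidocaine minus control (horizontal axis), for the 8 measured genes, with unadjusted 95% intervals from the moderated fit. Filled points passed adjusted p 0.05, and the grey band spans the 5th to 95th percentile of all genes, from -0.45 to 0.52. Rbfox1, Rbfox3 and the 3 Elavl genes lie below the band, and Rbfox2, Map2 and Uchl1 lie inside it.

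Map2, the dendritic microtubule protein gene, had log2 values of 9.26, 9.29 and 9.30 in the controls and 9.13, 8.96 and 8.79 with lidocaine. The controls were within 0.04 of each other, and the treated rats lay below them by unequal amounts. Map2 fell 1.25-fold (log2 change -0.32 ± 0.09, SE, n = 3 per group, limma adjusted p = 0.0343). This call held with lidocaine rat 1 left out, and was lost with any other rat left out (adjusted p 0.0703 to 0.108) and after quantile normalization of the gene values (0.0945).

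Uchl1 had log2 values of 6.11, 6.32 and 6.16 in the controls and 5.91, 5.93 and 5.73 with lidocaine. Its groups had like spreads, with an SD of 0.11 in each, and all 3 lidocaine values lay below the 95th percentile of the negative control rows. Uchl1 fell 1.27-fold (log2 change -0.34 ± 0.09, SE, n = 3 per group, limma adjusted p = 0.0245), but missed the threshold when control rat 2, control rat 3 or lidocaine rat 3 was left out (adjusted p 0.0609 to 0.0822).

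Rbfox3, Elavl3 and Elavl4 passed with any 1 rat left out, with limma adjusted p no higher than 0.0395, 0.04 and 0.0374. The log2 change of Rbfox3 then ran from -0.61 to -0.41, that of Elavl3 from -0.53 to -0.37 and that of Elavl4 from -0.76 to -0.54. None of the 8 changes turned its sign in these fits.

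**Figure D3:**
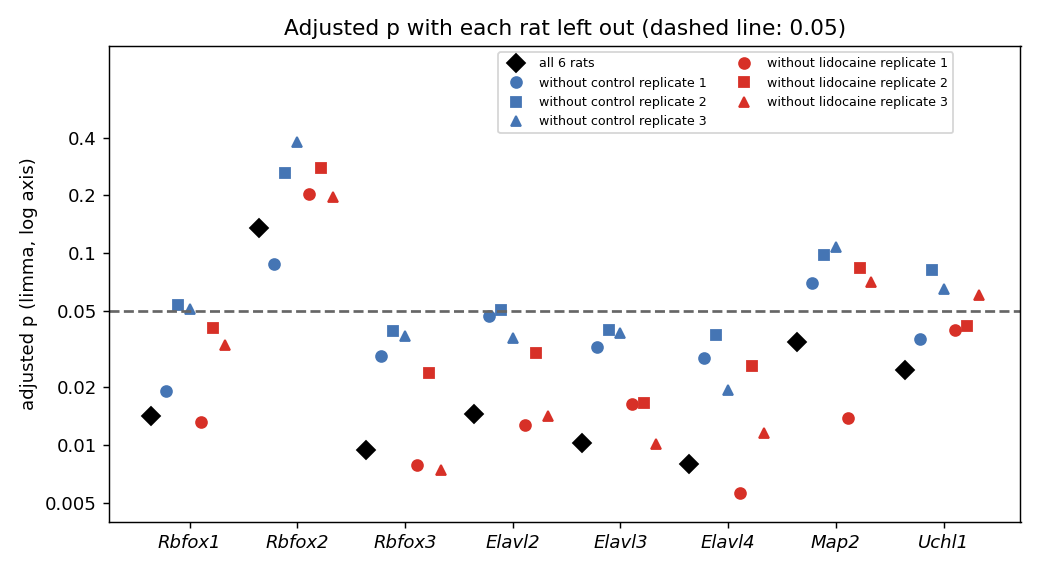
Limma adjusted p (vertical log axis) for each measured gene with all 6 rats (black) and with each control (blue) or lidocaine (red) rat left out, and a dashed line at 0.05. Rbfox3, Elavl3 and Elavl4 stay below the line in every fit, Map2 lies above it in 5 of the 6 fits with a rat left out, and Rbfox2 lies above it in all of them.

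Log2 changes were also compared between members of a family, although 3 rats per group cannot give an exact permutation p below 0.1, so no difference between members could pass. A total of 6 pairs within the Rbfox and Elavl families were compared by the difference of their log2 values in each rat. The log2 change of Rbfox3 relative to Rbfox2 was -0.37. Rbfox3 minus Rbfox2 was 1.61 ± 0.08 in the controls and 1.24 ± 0.21 with lidocaine (SD, n = 3, exact two-sided permutation p = 0.1, adjusted over 6 pairs 0.3). The change of Rbfox1 relative to Rbfox2 was -0.31, also with no overlap between groups and exact p = 0.1. Relative to Rbfox1, the change of Rbfox3 was -0.06, with overlapping groups (exact p = 0.5). Within the Elavl family all 3 pairs overlapped between groups: Elavl4 against Elavl3 differed by -0.19, Elavl4 against Elavl2 by -0.07 and Elavl3 against Elavl2 by 0.12 (exact p = 0.2, 0.6 and 0.2).

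The rats also differed within the treated group. Averaged over the 8 genes, the distance from the control mean was -0.31, -0.39 and -0.61 on the log2 scale in lidocaine rats 1, 2 and 3, and between -0.03 and 0.04 in the 3 controls. Lidocaine rat 3 had the lowest treated value for 7 of the 8 genes, all but Rbfox2, and lidocaine rat 1 the highest for 6. The SD was larger in the treated than in the control rats for 7 of the 8 genes, against 55.1% of all genes. For Uchl1 and Rbfox1, both counted among the 7, the SDs were nearly equal, with ratios of 1.01 and 1.04. The difference in spread was not tested.

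As a list, other neuron markers followed the same rats. Of 16 other neuron markers 15 fell and 1 did not pass, with a median log2 change of -0.52. The exception was the matrix glycoprotein gene Reln (log2 change 0.33, limma adjusted p = 0.271). The distance of their mean from the controls was -0.37, -0.42 and -0.70 in lidocaine rats 1, 2 and 3, the same order as for the RNA-binding and cytoskeletal markers. This order was not confined to neuronal lists: the distance was -0.37, -0.47 and -0.58 for oligodendrocyte markers and -0.02, -0.09 and -0.32 for astrocyte markers. Nor did all related lists share it. The order was reversed for tubulins (-0.18, -0.14 and -0.12) and for genes of sensory ganglion neurons (-0.07, 0.06 and 0.16). The count of 15 was 6 without control rat 2. Of 8 genes of sensory ganglion neurons, 0 passed in limma, with 1 higher and 1 lower at an unadjusted p under 0.05. All of these 8 but Prph lay below the 95th percentile of the negative control rows on all 6 arrays, so changes could be understated. The sodium channel genes that define nociceptors, Scn10a and Scn11a, had control means of 2.91 and 2.27, near the negative control median of 2.71.

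Markers of other cells moved with the treatment too. All 11 measured microglia and macrophage markers rose, by a median log2 change of 1.48, and their mean rose by 1.42 to 1.63 in the 3 lidocaine rats with controls from -0.04 to 0.05. Tyrobp, Lyz2, Cd68, Itgam, C1qc and Trem2 lay below the 95th percentile of the negative control rows in all 3 controls, so the sizes of their rises are uncertain. All 5 markers of dividing cells rose, by a median log2 change of 1.48, with the highest mean in lidocaine rat 3, at 1.98 above the controls. Aurkb, Birc5 and Ccnb1 lay below that percentile on all 6 arrays, Top2a on 5 and Mki67 in all 3 controls. The sizes of these rises are therefore uncertain too. Of 6 oligodendrocyte markers 4 fell and 2 did not pass, with the mean below the controls in all 3 lidocaine rats. The 6 astrocyte markers comprised 3 that fell, 1 that rose and 2 that missed the threshold, and with any 1 control rat left out a single one fell. For the Schwann cell, endothelial and skeletal muscle markers (3, 4 and 3 genes) 0 passed in limma, and 0 at an unadjusted p under 0.05. All 3 skeletal muscle genes and the endothelial gene Tek lay below that percentile on all 6 arrays. The Schwann cell gene Prx and the endothelial gene Flt1 did so in 2 lidocaine rats, so changes in these lists could be understated. Of 3 red blood cell genes 0 passed, 1 was lower at an unadjusted p under 0.05, and all 3 fell without lidocaine rat 3. Among them, Alas2 and Hbb lay below that percentile on all 6 arrays. The median of the array's positive control rows was 6.89 in the controls and 6.71 with lidocaine, a difference of -0.18. Values on these arrays are relative to the total signal, and the part of these shifts in the falls of the neuronal genes was not tested.

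**Figure D4:**
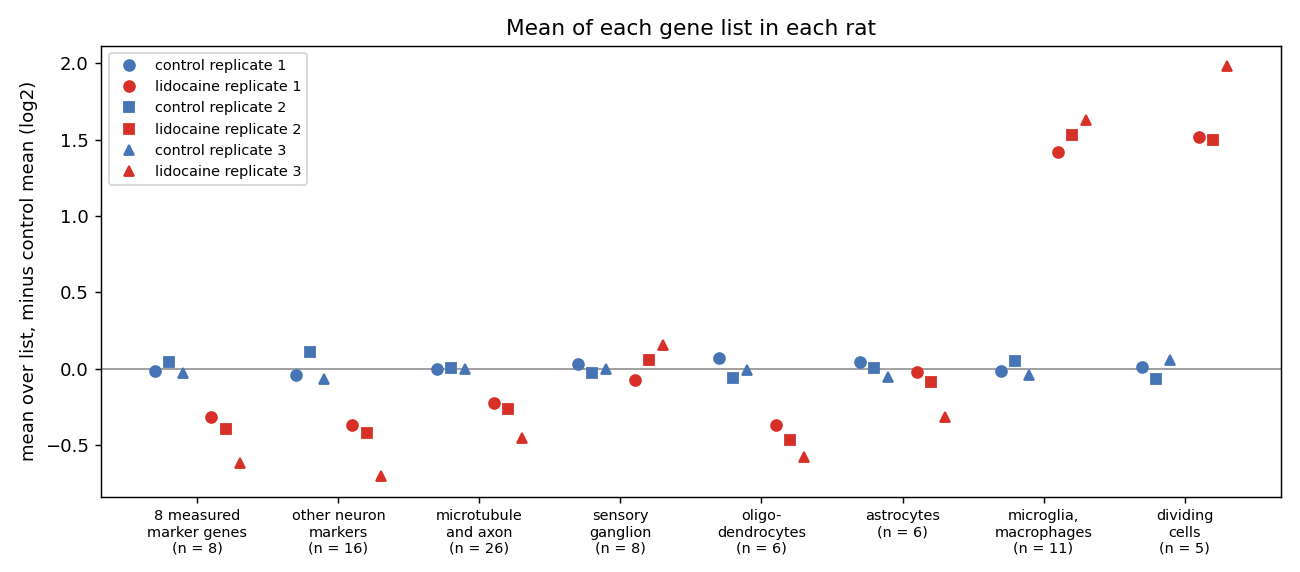
Mean log2 value of each gene list in each rat, as the distance from the mean of the 3 controls (vertical axis), with control rats in blue and lidocaine rats in red. The RNA-binding and cytoskeletal markers, the other neuron markers, the microtubule and axon genes, the oligodendrocyte markers and the astrocyte markers are all lowest in lidocaine rat 3, and microglia and dividing cell genes are more than 1 log2 unit above the controls in all 3 lidocaine rats.

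Other RNA-binding regulators went in both directions. Of 33 measured, 9 fell, 3 rose and 21 did not pass, and the median log2 change was -0.07. The share that passed in either direction was 36.4%, against 23.7% over all genes. Many of the 33 lay below the 95th percentile of the negative control rows on all 6 arrays. Changes in this list, and its median, could therefore be understated. The polypyrimidine tract-binding proteins, which repress exons, divided: Ptbp2, the form made in young neurons, fell (log2 change -0.35 ± 0.07, SE, limma adjusted p = 0.0111), while Ptbp1, made by cells other than neurons, rose 1.56-fold and Ptbp3 rose 1.95-fold (adjusted p = 0.00516 and 0.000517). Ptbp3 went from 5.77, 6.01 and 5.82 in the controls to 6.89, 6.71 and 6.88 with lidocaine, with no overlap. In 2 of the controls Ptbp3 lay below the 95th percentile of the negative control rows, so the size of its rise is uncertain. Cpeb3, which controls translation at synapses, fell (log2 change -0.51 ± 0.10, SE, limma adjusted p = 0.012). The count of 9 falls was 1 without control rat 2, 3 without control rat 3, and 5 without control rat 1 or lidocaine rat 2.

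Of 9 mRNAs reported as bound by neuronal Elavl proteins, 4 were measured. Mapt, which encodes the axonal microtubule protein tau, fell (log2 change -0.53 ± 0.07, SE, n = 3 per group, limma adjusted p = 0.00321), as did the splicing regulator gene Nova1 (-0.48 ± 0.10, adjusted p = 0.0146). The axon growth protein gene Gap43 and the neurotrophin gene Bdnf differed by 0.06 and 0.02 on the log2 scale, short of the threshold (adjusted p = 0.599 and 0.909). The mean of Bdnf was 2.55 in the controls, below the negative control median. One of the 2 calls was lost without control rat 2.

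Among tubulin genes, the subunits of microtubules, 7 of 14 fell, 1 rose and 6 did not pass, with a median log2 change of -0.20. Tubb4a, a beta-tubulin abundant in oligodendrocytes and neurons, fell (log2 change -0.56 ± 0.09, SE, limma adjusted p = 0.00491). Tuba4a and Tubb4b fell by 0.47 and 0.38 on the log2 scale (adjusted p = 0.00366 and 0.00458), with Tuba4a below the 95th percentile of the negative control rows on 5 of the 6 arrays. Tubb6 rose 1.57-fold, from 6.50, 6.53 and 6.50 in the controls to 7.01, 7.17 and 7.32 with lidocaine (adjusted p = 0.00241). The 7 falls were 4 without control rat 3. Tubulin genes are alike in sequence, so probes may be shared between them.

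Of 26 measured microtubule-associated and axonal cytoskeleton genes 16 fell, 0 rose and 10 did not pass in limma, with a median log2 change of -0.31. At an unadjusted p under 0.05, 21 were lower and 0 higher. Besides Mapt, the genes that fell included Dcx, a microtubule protein of young neurons, the neurofilament gene Ina and the axonal kinesin gene Kif5a. Dcx, Ina and Kif5a fell by 0.44, 0.53 and 0.45 on the log2 scale (limma adjusted p = 0.00458, 0.0114 and 0.0118). Dcx lay below the 95th percentile of the negative control rows on all 6 arrays, so it may be near background and the size of its fall is uncertain. The 16 falls were 9 without control rat 1 or 3 and 5 without control rat 2. Of 11 genes of ubiquitin and its hydrolases, relatives of Uchl1 in function, 2 fell, 0 rose and 9 did not pass, with a median log2 change of -0.18, and 8 were lower and 0 higher at an unadjusted p under 0.05. The deubiquitinase genes Usp33 and Usp5 fell by 0.35 and 0.26 (adjusted p = 0.0234 and 0.0303), and 0 passed without any 1 control rat or without lidocaine rat 2 or 3. Uchl3 and Uchl5, from the same enzyme family as Uchl1, had log2 changes of -0.15 and -0.22 (adjusted p = 0.124 and 0.114) and were chosen after their values were seen. Uchl3 lay below the negative control percentile on all 6 arrays, and Uchl5 on the 3 lidocaine arrays.

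**Figure D5:**
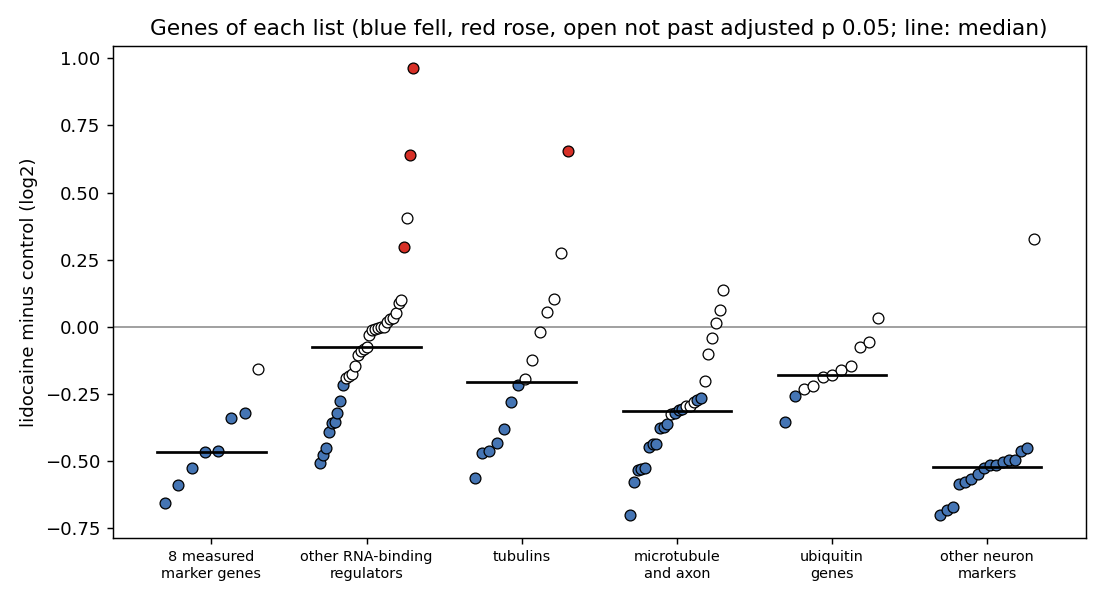
Log2 change, lidocaine minus control (vertical axis), of each gene in the 8 measured markers and 5 related lists, with genes that fell in blue, genes that rose in red, genes that did not pass open, and a line at each list's median. The medians run from -0.07 for other RNA-binding regulators to -0.52 for other neuron markers.

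The genes whose values over the 6 rats followed Rbfox3 most closely were Chic1, Mapk8ip2 and Fbxw7. Likeness was the root mean square difference of values centred on each gene's mean, which was 0.012, 0.019 and 0.019 on the log2 scale. Their log2 changes were -0.52, -0.52 and -0.49. Closest to Elavl4 were Ptchd4, Clvs1 and Ube2ql1, at 0.037, 0.040 and 0.048, with log2 changes of -0.61, -0.65 and -0.61. These 6 genes were picked for their likeness over the same arrays, so their changes are a description. Ptchd4 lay below the 95th percentile of the negative control rows on all 6 arrays.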

How the data were processed

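Per the submitters' processing notes, the authors made the deposited log2 values with RMA, which corrects background, equalises the distribution of probe values across arrays and summarises each transcript cluster by median polish. A change is therefore relative to the other signal on an array, and changes of dim genes can be understated. No software version, array model or genome build is given in the sources used. Of 65527 rows, 63789 were transcript clusters. The platform annotation gave exactly 1 gene for 21560 clusters, several for 471, which were not used, and none for 41758. Symbols were updated by gene identifier from a RefSeq table of GRCr8 (20304 clusters matched, 1 symbol changed). The brightest cluster over 6 arrays was kept for each gene, leaving 20530 genes.

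Groups come from the sample titles, and the labels name no batch. The labels speak of 3 rats per group. The test was limma's (version 3.58.1, under R 4.3.3), with lmFit and eBayes at default settings (Benjamini-Hochberg adjustment over all genes, threshold 0.05), with moderated standard errors, and the steps were tested on simulated data. Pairs of members were compared by exact permutation over rats. The correlation of array values was 0.994 to 0.996 within groups and 0.987 to 0.992 between them, over all transcript clusters, which are not independent. The medians over named genes were 4.56 to 4.59 in the controls and 4.61 to 4.66 with lidocaine. Precision is limited by the number of arrays.

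The members and gene lists were chosen with earlier results of these data known. Genes named are the 10 members, up to 4 genes with the smallest p from each related list, the 3 nearest to Rbfox3 and to Elavl4, and markers of cell types. Elavl1, Uchl3 and Uchl5, relatives of members, were named outside these rules. Counts of list members that were not measured are left out of each total. Alternatives were a replicate block, each rat left out, median centring, quantile normalization, the mean of a gene's clusters, dim genes left out, a trended and robust variance, and array weights. The comparison of Map2 with Tubb3 was not run, since the expression of Tubb3 was not analysed here.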

Additional observations from a re-analysis of the deposited data

How the results depend on the processing

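All 8 members kept a negative log2 change under all 13 alternatives. With each rat left out in turn, 3 to 7 members were called lower, against 7 with all rats, and over all genes 1342 to 2423 were called lower and 1299 to 1912 higher, against 2875 and 1992. The fewest lower calls came without control rat 2 (3 members, 1342 genes), followed by control rat 3 (4 members, 1607 genes, and the lowest count of higher calls, 1299). Under the other alternatives 6 to 8 members were called. Map2 was lost after quantile normalization, which left 6 members, and Rbfox2 was gained with array weights, which gave 8. The sizes of the changes moved with the scaling of the arrays. Quantile normalization made all 8 smaller (Rbfox3 -0.44, against -0.53 in the main fit), and median centring made all 8 larger (Rbfox3 -0.57). Median centring kept 7 members and raised the genes called lower to 4086, with 1761 higher. The change of Rbfox3 relative to Rbfox1, -0.06, ran from -0.12 to 0.0062 with each rat left out, and the sign turned without control rat 1. The cause was not tested. With the replicate number as a block (replicate block), 6 members and 2268 genes were called lower and 1737 genes higher, and Map2 was lost (adjusted p = 0.0584). Deviations of samples with the same number had correlations of -0.06, -0.24 and 0.14, and those with different numbers ran from -0.22 to 0.38. With 3 rats per group this cannot decide whether the numbers pair the rats. List counts without each rat were added after the values were seen. Rbfox2 lay below the 95th percentile of the negative controls in all rats, and Elavl2, Elavl4 and Uchl1 did so in 1, 2 and 3 lidocaine rats, so these values may lie near background and their changes may be understated.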
